A study of Saccharomyces cerevisiae with 6 samples.

Results

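The genes described here are the G1 cyclins and Start regulators of budding yeast: CLN1, CLN2, CLN3, PCL1, PCL2, PCL9, SWI4, WHI5, SIC1 and KCC4. They were taken by name from the deposited table, and 8 of the 10 were found among its 4014 genes. PCL2 and WHI5 were not analysed here. The table lists genes with at least 2 clusters of polyadenylation (pA) sites. The table came from 3 libraries of Saccharomyces cerevisiae with a JHD2 deletion and 3 libraries of JHD2 wild type, all from mid-log cultures, with no other allele or treatment named. JHD2 encodes a histone H3 lysine 4 demethylase belonging to the KDM5 group, and the series title links enzymes of this family to 3′ untranslated region (UTR) length. The libraries were made by 3′READS, which sequences the 3′ ends of polyadenylated RNA, so a read marks where a transcript was cleaved. Nothing in the labels says whether replicates were separate cultures, so the p-values cover only library-to-library spread, which may be technical.

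Start is the point late in G1 at which a yeast cell commits to division. The cyclin Cln3, bound to the kinase Cdc28, relieves the repressor Whi5 from the transcription factor SBF, whose DNA-binding subunit is Swi4, and SBF then switches on CLN1, CLN2, PCL1 and PCL2. The Cln1 and Cln2 kinases start budding and mark the inhibitor Sic1 for destruction, which frees the S-phase cyclins. The Pcl cyclins act with another kinase, Pho85, and Kcc4 is a protein kinase of the septin ring at the bud neck. In bulk RNA of growing cells, fewer cells in a phase and less mRNA per cell cannot be told apart.

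The table held 380332 to 480847 reads in the deletion libraries, against 233749 to 368419 in wild type. Wild-type replicate 2 was the shallowest and stood apart, with a mean correlation of 0.942 with the other wild-type libraries across genes, where the other 5 libraries had 0.951 to 0.972 with their own group. Wild-type replicates 1 and 3 had higher mean correlations with the deletion libraries (0.9595 and 0.9576) than with their own group (0.9532 and 0.9511). Log2 fold changes of members that moved by over 1.5 times without wild-type replicate 2 are also given without it. JHD2 was not among the genes analysed here, so these reads offer no check of the deletion and the groups rest on the labels. The depth of the members ran from 19 reads for SWI4 over all 6 libraries to 1496 for CLN2.

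The 3′ ends on which the results turn are shown first, as the last 30 bases of the transcript strand up to each deposited cluster position, 5′ to 3′ (RefSeq assembly R64, the sequence of sacCer3). Capitals mark the positioning element AATAAA where it falls in these bases. For CLN1 (YMR199W, chromosome XIII, 662644 to 664284, plus strand) the window ends at its most-read cluster, 96 nt past the stop codon. For PCL1 (YNL289W, chromosome XIV, 87897 to 88736, plus strand) the windows end at its clusters at 120 and 404 nt, the nearest to the gene of the member called for site usage. For KCC4 (YCL024W, chromosome III, 79162 to 82275, plus strand) they end 116 and 955 nt past the stop codon.
CLN1 chrXIII:664351-664380: gtaataatgacattcatacttgacatttta
PCL1 chrXIV:88827-88856: ttaaataatcaaggatacctaataataata
PCL1 chrXIV:89111-89140: aactttgataagtttatcaaaggcgttaac
KCC4 chrIII:82362-82391: tttgaaaaaAATAAAatggtaatttattaa
KCC4 chrIII:83201-83230: aattcccttttgtggattcacatattctcg
Within 100 nt before the cluster, AATAAA was present at the first 2 of the 3 KCC4 clusters and at no other member cluster, while 18.2% of all 13561 annotated clusters had it. The efficiency element TATATA was present before the CLN1 clusters 65 and 96 nt past the stop codon and before no PCL1 cluster, against 31.8% of all clusters. It was also present before the KCC4 clusters at 116 and 156 nt and the CLN2 clusters at 190 and 222 nt. The other member clusters with it were those of SIC1 at 126 and 153 nt and of PCL9 at 237 nt. Both motifs were searched on the transcript strand only. The 50 nt before each member cluster matched no other place in the genome at 45 or more bases, the closest being 43 bases in an A-rich window of SWI4.

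Levels are given as counts per 1e6 reads after TMM scaling (CPM). A read counts 1 transcript end whatever the length of the gene, so CPM values were compared between genes without dividing by length. In wild type the order from high to low was CLN2, PCL1, SIC1, CLN1, PCL9, KCC4, CLN3 and SWI4. CLN2 averaged 686 ± 81.7 CPM in the deletion strain, against 697 ± 92.8 CPM in wild type (SD, n = 3 each), above 93.4% of the genes of the table in wild type. The wild-type ranges of CLN2 and PCL1 stood clear of each other and of the rest. SIC1 overlapped CLN1, PCL9 overlapped KCC4, KCC4 overlapped CLN3, and CLN3 overlapped SWI4, so these neighbours were not separated by the spread. In the deletion, CLN1 stood below PCL9, at 79.5 ± 15.9 against 85.0 ± 16.0 CPM, with ranges that overlapped. KCC4 there lay at 25.5 ± 7.02 CPM beside CLN3 at 25.3 ± 8.85.

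**Figure D1:**
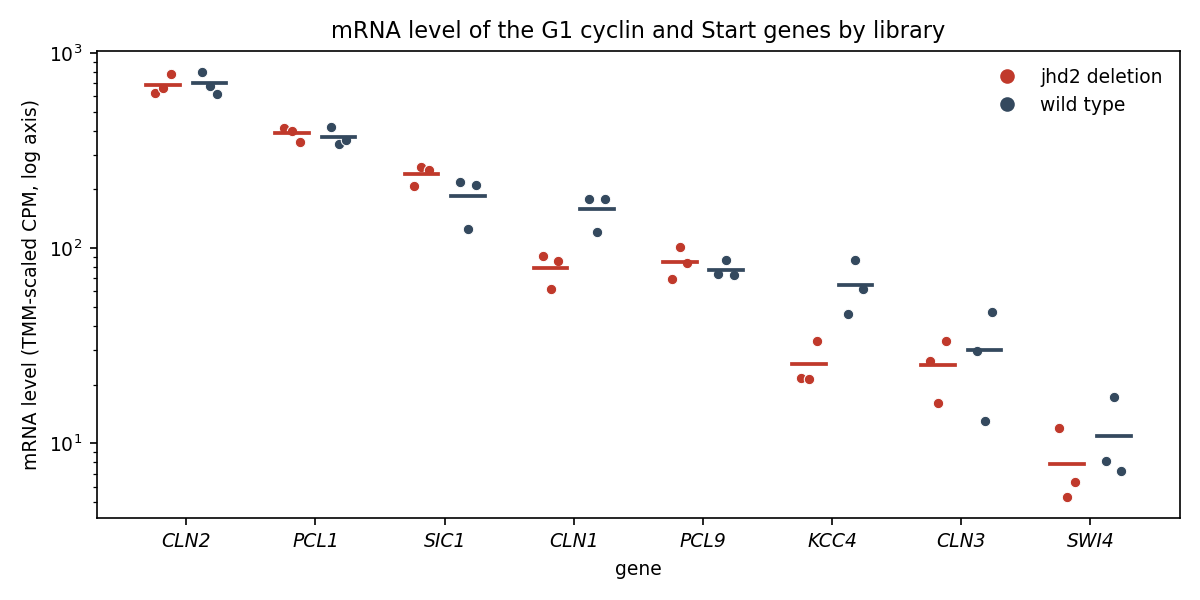
mRNA level of the 8 genes in each library on a log axis (TMM-scaled CPM); points are libraries and bars are means of 3. CLN1 and KCC4 are the genes whose deletion points all lie below their wild-type points.

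Of the 8 genes, 7 passed the low-count filter and were tested for mRNA level, and 2 of them, CLN1 and KCC4, were lower in the deletion. None of the 7 was called higher by edgeR, and CLN1 and KCC4 were also the only members with an unadjusted p under 0.05 (2 of 7). The share of all tested genes at that unadjusted level is not given here. Counts of genes at it, here and in the lists below, are therefore not set against a background. Across all 3366 tested genes, 1.31% were called in either direction and 0.238% were called lower. The members were chosen with earlier results of these data known, so their share called cannot be tested against these shares. The 7 tested members had a median log2 fold change of -0.03, beside -0.00026 over all tested genes. Groups did not overlap in 2 of the 7, both lower in the deletion, where 15.6% of all tested genes did not overlap (6.95% lower and 8.62% higher).

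CLN1, a G1 cyclin that activates Cdc28, had 91.1, 61.4 and 86.2 CPM in the deletion libraries (replicates 1, 2 and 3), against 179, 122 and 177 CPM in the wild-type libraries. Every deletion library lay below every wild-type library. The log2 fold change was -1.01 (SE 0.22, adjusted p = 0.0039, edgeR quasi-likelihood test with Benjamini-Hochberg adjustment). The call was lost without deletion replicate 2, the lowest library, with a log2 fold change of -0.88 (adjusted p = 0.079, edgeR). Without wild-type replicate 2, and without any of the other 4 libraries, it was kept.

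CLN1 ended at 4 clusters, each with a log2 fold change below 0. The cluster 96 nt past the stop codon contained 19, 11 and 19 reads in the deletion libraries, against 32, 11 and 23 reads in the wild-type libraries. It carried 48.1% ± 1.84 of CLN1 reads in the deletion strain, against 44.9% ± 4.93 in wild type. The clusters at 65 and 126 nt held 22.7% ± 11.04 and 9.71% ± 8.50 of reads in the deletion strain, against 22.4% ± 2.65 and 16.1% ± 8.69 in wild type. The log2 fold changes of these single clusters were -0.95 (SE 0.42) at 65 nt, -0.95 (SE 0.30) at 96 nt and -1.68 (SE 0.57) at 126 nt, and none passed adjustment over the 7252 clusters tested (adjusted p from 0.23 to 0.58, edgeR). The relative use of the 4 clusters gave an adjusted p of 0.98 (edgeR diffSpliceDGE).

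The remaining CLN1 cluster lay inside the coding region, at position 663782 (-502 nt relative to the stop codon). It held 4, 6 and 9 reads in the deletion libraries, against 10, 8 and 3 reads in the wild-type libraries. Its share of CLN1 reads was 19.5% ± 8.06 in the deletion strain, against 16.6% ± 11.3 in wild type, and the groups overlapped. RNA ending there would lack the end of the open reading frame. The 30 bases up to it were 80.0% A or T.
CLN1 chrXIII:663753-663782: aaaagattataacttggaattacaaaagaa

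CLN2, the close paralog of CLN1 with the same role, was not called. CLN2 had 621, 659 and 778 CPM in the deletion libraries, against 798, 677 and 616 CPM in the wild-type libraries. These ranges overlapped, and the log2 fold change was -0.03 (SE 0.15, adjusted p = 0.98, edgeR), or -0.06 without wild-type replicate 2. The ratio of the paralogs within a library does not depend on scaling: there were 6.82, 10.7 and 9.02 CLN2 reads per CLN1 read in the deletion libraries, against 4.46, 5.57 and 3.47 in the wild-type libraries. All 3 deletion libraries lay above all 3 wild-type libraries (exact two-sided permutation test, p = 0.10, the smallest possible with 3 against 3). CLN2 supplied 89.6% ± 2.17 of the reads of the pair in the deletion strain, against 81.4% ± 3.59 in wild type. The difference of 8.21 percentage points fell to 4.41 with only the most-read cluster of each gene. This ratio was chosen after the CLN1 values were known.

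**Figure D2:**
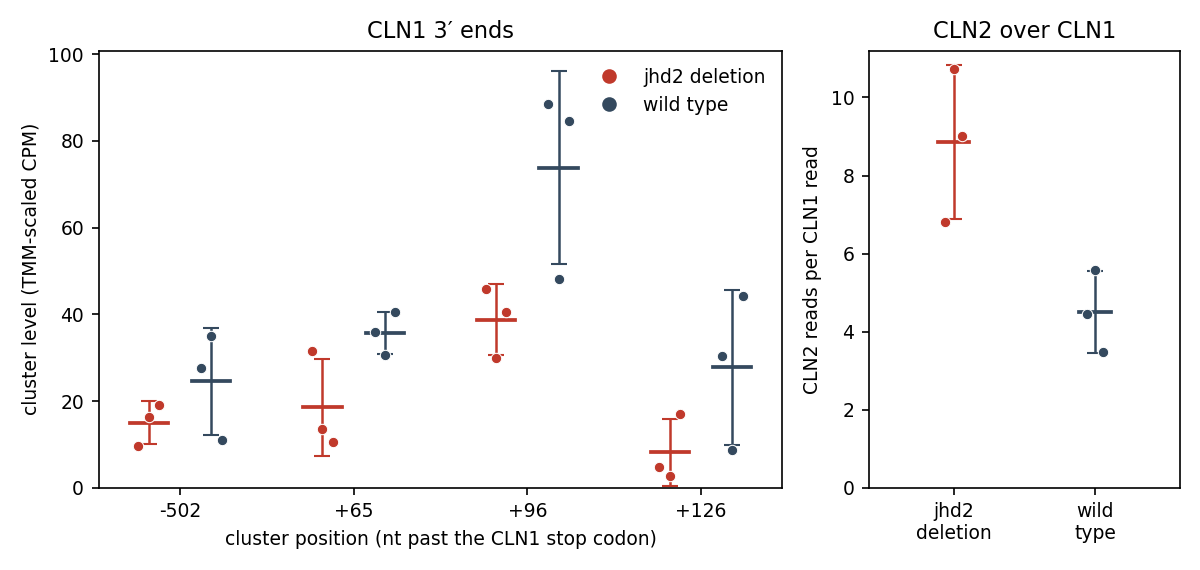
Left, level of the 4 CLN1 clusters by distance past the stop codon (TMM-scaled CPM; -502 lies in the coding region); right, CLN2 reads per CLN1 read. Points are libraries, bars and whiskers mean ± SD (n = 3). All deletion ratios (6.82 to 10.7) lie above all wild-type ratios (3.47 to 5.57).

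CLN2 (YPL256C, chromosome XVI, 64977 to 66614, minus strand) used a single dominant 3′ end, unlike CLN1. The cluster 190 nt past its stop codon contained 230, 222 and 346 reads in the deletion libraries, against 276, 136 and 155 in the wild-type libraries. That was 90.7% ± 2.47 of CLN2 reads in the deletion strain, against 90.7% ± 3.37 in wild type. The clusters at 107 and 222 nt held the rest, with 4.07% ± 0.494 and 5.20% ± 2.03 in the deletion strain, against 4.22% ± 1.94 and 5.04% ± 1.52 in wild type. The mean 3′ end of CLN2 differed by 0.175 nt between strains (exact permutation p = 1, two-sided), and the use of the clusters did not pass (adjusted p = 0.99, edgeR diffSpliceDGE). Over all 3365 annotated genes tested for level, the most-read cluster held a median of 73.6% of the reads. Among the members this value ran from 38.0% in PCL1 to 91.2% in CLN2.

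Promoters of G1 genes can carry elements read by SBF and by MBF, its sister factor built on Mbp1. Windows of 800 nt before the start codon were searched on both strands for the SBF element, CACGAAA or CGCGAAA, and for the MBF element, ACGCGT, with no overlap between matches of the members. CLN2 and PCL1 had 3 SBF elements each, a number reached in 0.284% of 5997 promoters of the same length, and PCL2 had 2. CLN1, SWI4, SIC1 and KCC4 had 1, where 17.1% of all promoters had 1 or more, and CLN3, PCL9 and WHI5 had none. The MBF element was present once in CLN1, SWI4 and KCC4, where 7.62% of all promoters had it. These are matches of letters, not sites known to be bound. They are shown here for 3 members, with the matches in capitals and the strand of the gene (minus for CLN2). Any link between these matches and the mRNA levels was not tested.
CLN1 chrXIII:661844-661873: ggtaaagcCACGAAAacaccgcgcgtaaag
CLN1 chrXIII:662026-662055: agcctgcaagagACGCGTtcaaggaagaat
CLN2 chrXVI:67178-67207: tcaacggaagtaCACGAAAttcgtcccgct
PCL1 chrXIV:87582-87611: aatcgcgtccggCGCGAAAttTTTCGCGga
The CLN1 matches begin 792 and 606 nt before its start codon. The CLN2 match shown begins 581 nt before its start codon, and the PCL1 window holds matches at 303 and 294 nt on opposite strands.

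PCL1, a Pho85 cyclin of late G1, was called for the balance of its 3′ ends and not for its total level. PCL1 had 415, 398 and 349 CPM in the deletion libraries, against 415, 343 and 358 CPM in the wild-type libraries. The groups overlapped, with a log2 fold change of 0.04 (SE 0.15, adjusted p = 0.96, edgeR), and it was -0.02 without wild-type replicate 2. PCL1 was the member called for pA site usage, 1 of 7 tested, where 0.21% of 2380 tested genes were called (adjusted p = 0.041, edgeR diffSpliceDGE). With members chosen after earlier results of these data were known, that comparison is no test of the family.

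The PCL1 cluster 120 nt past the stop codon contained 48, 30 and 59 reads in the deletion libraries, against 103, 22 and 49 reads in the wild-type libraries. The PCL1 cluster at 404 nt contained 60, 66 and 47 reads in the deletion libraries, against 14, 22 and 22 reads in the wild-type libraries. Scaled to the reads of each library, the nearer cluster overlapped between strains, at 108 ± 23.1 CPM in the deletion strain, against 187 ± 94.3 CPM in wild type. The farther cluster did not overlap, at 142 ± 39.9 CPM in the deletion strain, against 72.1 ± 29.9 CPM in wild type. Of all clusters tested, 13.1% did not overlap between the groups. The log2 fold changes were -0.84 (SE 0.26, adjusted p = 0.23, edgeR) at 120 nt and 1.03 (SE 0.28, adjusted p = 0.12, edgeR) at 404 nt. Without wild-type replicate 1 they were -0.37 (adjusted p = 0.77) and 0.66 (adjusted p = 0.54), and without wild-type replicate 2 they were -1.12 (adjusted p = 0.0011) and 1.27 (adjusted p = 0.014, edgeR). There were 1.25, 2.2 and 0.797 reads at 404 nt per read at 120 nt in the deletion libraries, against 0.136, 1.0 and 0.449 in the wild-type libraries. These ratios overlapped (exact two-sided permutation test, p = 0.20).

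As shares of PCL1 reads, the cluster at 120 nt held 27.8% ± 7.70 in the deletion strain, against 48.2% ± 19.8 in wild type, and the cluster at 404 nt 35.8% ± 8.05 in the deletion strain, against 19.7% ± 9.59 in wild type. The mean 3′ end lay 225, 248 and 203 nt past the nearest cluster in the deletion libraries, against 105, 231 and 158 nt in the wild-type libraries. Wild-type replicate 2 lay within the deletion range and the other wild-type libraries below it (exact two-sided permutation test, p = 0.30). The usage call was lost without deletion replicate 1 (adjusted p = 0.19) or 2 (0.93) and without wild-type replicate 1 (0.76) or 3 (0.22). It was kept on leaving out deletion replicate 3 (0.022) or wild-type replicate 2 (9.7e-05, edgeR diffSpliceDGE), the fits in which the mean end lay 71.7 and 93.7 nt farther in the deletion. With all 6 libraries it lay 60.5 nt farther, and without wild-type replicate 1 it lay 30.7 nt farther. The difference in the share at 120 nt, -20.4 percentage points with all libraries, was -10.9 without wild-type replicate 1 and -30.6 without wild-type replicate 2.

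The remaining PCL1 clusters lie in or past SNR40, a box C/D small nucleolar RNA gene on the same strand that begins 474 nt past the PCL1 stop codon. The cluster at position 89213 lies 477 nt past the stop codon, at the first bases of SNR40. It held 55, 46 and 53 reads in the deletion libraries, against 33, 31 and 25 reads in the wild-type libraries. Its share was 31.5% ± 0.574 in the deletion strain, against 28.7% ± 9.32 in wild type, with groups that overlapped. Whether reads assigned to PCL1 there are ends of PCL1 mRNA was not tested. At 516 and 765 nt, reads assigned to PCL1 cannot be told apart from reads of a SNR40 transcript. The cluster at 516 nt averaged 10.8 ± 8.61 CPM in the deletion strain, against 5.07 ± 3.23 CPM in wild type. The cluster at 765 nt averaged 8.59 ± 3.98 CPM in the deletion strain, against 7.22 ± 1.62 CPM in wild type, and the groups overlapped at both. With every cluster at or past the start of SNR40 left out, the cluster at 404 nt held 56.2% ± 12.2 of the PCL1 reads in the deletion strain, against 31.0% ± 19.0 in wild type. These shares overlapped (exact two-sided permutation test, p = 0.20). Usage was then still called (adjusted p = 0.042, edgeR diffSpliceDGE).

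**Figure D3:**
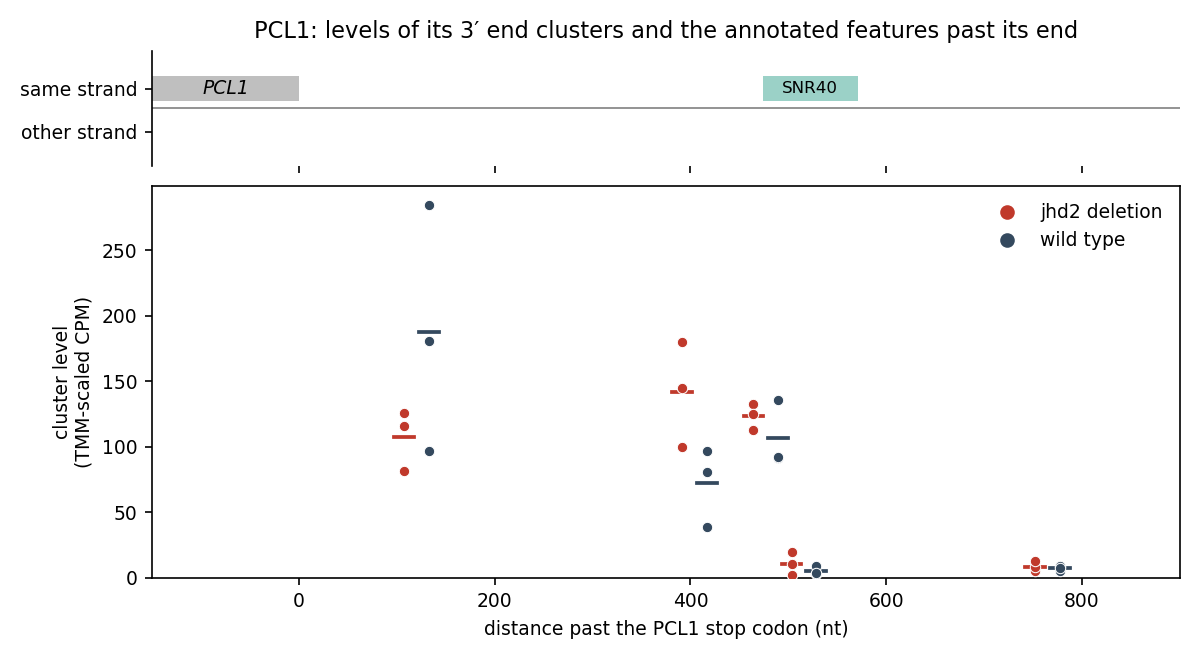
Level of the 5 PCL1 clusters (TMM-scaled CPM) by distance past the stop codon, with SNR40 drawn to scale above; points are libraries and bars means, set side by side around each position. At 404 nt all deletion libraries lie above all wild-type libraries, and at 120 nt the groups overlap.

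KCC4, the bud-neck kinase gene, was the other gene called lower. It had 21.6, 21.4 and 33.6 CPM in the deletion libraries, against 46.1, 86.8 and 61.6 CPM in the wild-type libraries. The groups did not overlap, and the log2 fold change was -1.25 (SE 0.34, adjusted p = 0.047, edgeR). With 9, 8 and 16 reads in the deletion libraries and 17, 20 and 17 in the wild-type libraries, leaving out wild-type replicate 1 kept the call and leaving out any of the other 5 lost it (adjusted p from 0.052 to 0.24). Without wild-type replicate 2, the highest library, the log2 fold change was -1.03 (adjusted p = 0.24, edgeR).

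Most KCC4 reads came from a 3′ end far from the gene. The cluster 955 nt past the stop codon contained 7, 5 and 7 reads in the deletion libraries, against 10, 12 and 12 reads in the wild-type libraries. Between it and KCC4 the annotation places a tRNA gene on the other strand, 187 to 258 nt past the stop codon, and a Ty1 long terminal repeat (LTR) on each strand, at 425 to 761 and 780 to 919 nt. Among tested genes, 1.07% had their most-read cluster at or past the next feature of the same strand. The cluster at 955 nt did not overlap between groups in scaled level, at 15.2 ± 1.68 CPM in the deletion strain, against 41.5 ± 12.7 CPM in wild type. Its log2 fold change was -1.37 (SE 0.41, adjusted p = 0.19, edgeR). Of all tested clusters, 13.1% did not overlap between the groups.

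The cluster at 116 nt, preceded by AATAAA in the window shown above, held 2, 3 and 8 reads in the deletion libraries, against 6, 8 and 3 reads in the wild-type libraries. Groups overlapped there, at 10.0 ± 6.30 CPM in the deletion strain, against 20.9 ± 12.6 CPM in wild type, with a log2 fold change of -0.92 (SE 0.57, adjusted p = 0.76, edgeR). With the cluster at 955 nt left out, KCC4 had too few reads to pass the filter and was not tested. The cluster at 955 nt held 61.3% ± 17.0 of the KCC4 reads in the deletion strain, against 63.1% ± 6.48 in wild type. Whether these reads are ends of KCC4 mRNA was not tested.

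**Figure D4:**
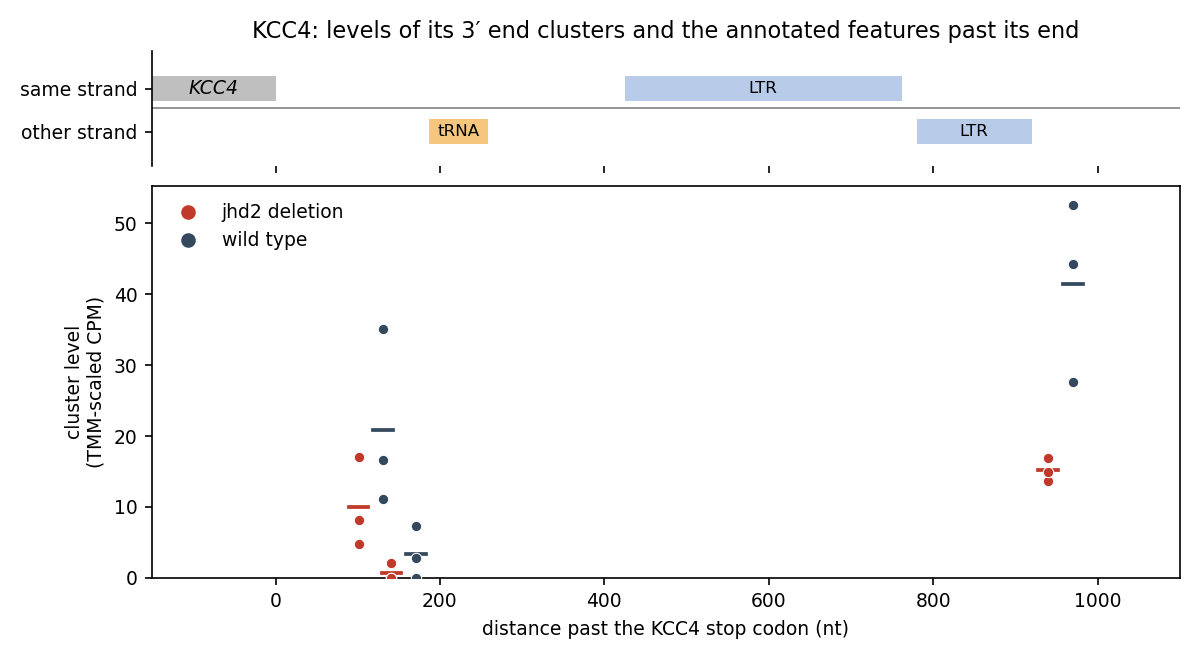
Level of the 3 KCC4 clusters (TMM-scaled CPM) by distance past the stop codon, with the tRNA gene and the LTRs drawn to scale above; points are libraries and bars means. The groups are separate at 955 nt, past both LTRs, and overlap at 116 nt. Of all tested clusters, 13.1% did not overlap.

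SIC1, the inhibitor of the S-phase cyclin kinases, is transcribed at the end of mitosis and in early G1. It had 209, 262 and 250 CPM in the deletion libraries, against 217, 126 and 210 CPM in the wild-type libraries. The groups overlapped, and the log2 fold change of 0.35 (SE 0.18) did not pass (adjusted p = 0.54, edgeR). The lowest value was that of wild-type replicate 2, and without that library the log2 fold change was 0.15. The SIC1 cluster 153 nt past the stop codon contained 77.4% ± 7.28 of reads in the deletion strain, against 79.0% ± 6.24 in wild type, and usage did not pass (adjusted p = 0.99, edgeR diffSpliceDGE).

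PCL9, a Pho85 cyclin made at the end of mitosis, had 69.5, 101 and 84.1 CPM in the deletion libraries, against 73.3, 86.8 and 72.4 CPM in the wild-type libraries. The groups overlapped (log2 fold change 0.14, SE 0.24, adjusted p = 0.90, edgeR). Its cluster 150 nt past the stop codon contained 67.2% ± 3.36 of reads in the deletion strain, against 63.8% ± 16.1 in wild type. All 4 of its clusters, 52 to 237 nt past the stop codon, lay before the next gene, DLD2, which begins at 317 nt.

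CLN3, the cyclin that acts first at Start, was read at low depth, with 11, 6 and 16 reads in the deletion libraries, against 11, 3 and 13 reads in the wild-type libraries. The level gave a log2 fold change of -0.24 (SE 0.41, adjusted p = 0.90, edgeR), with a wide spread and groups that overlapped. Without wild-type replicate 2 it was -0.53. CLN3 (YAL040C, chromosome I, 65778 to 67520, minus strand) faces CDC24, which encodes the exchange factor of Cdc42 in budding, and the end of CDC24 lies 374 nt past the CLN3 stop codon. The CLN3 cluster at 433 nt therefore lies within the CDC24 gene on the opposite strand, and the cluster at 187 nt between the genes. The cluster at 187 nt held 6, 3 and 8 reads in the deletion libraries, against 5, 1 and 3 reads in the wild-type libraries. Its share was 51.5% ± 2.62 in the deletion strain, against 34.0% ± 11.2 in wild type. The shares did not overlap between groups, and how often that occurred over all clusters is not given here. Usage did not pass (adjusted p = 0.93, edgeR diffSpliceDGE). The mean 3′ end lay nearer to the stop codon in the deletion (difference -43.2 nt, exact two-sided permutation p = 0.10, the smallest possible).

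SWI4, the DNA-binding subunit of SBF, had 5, 2 and 3 reads in the deletion libraries, against 3, 4 and 2 reads in the wild-type libraries. It did not pass the filter of either test. No test of its level was made. Its 3 clusters, 71 to 303 nt past the stop codon, lay before KAP123, which begins at 492 nt. At 303 nt there were 1, 0 and 0 reads in the deletion libraries, against 1, 2 and 1 in the wild-type libraries. The shares and scaled levels of that cluster did not overlap between groups, at a depth too low to be tested.

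With reads pooled over all 6 libraries, and apart from CLN3 and KCC4, the most-read cluster of the tested members lay 96 to 190 nt past the stop codon. Over all 3365 annotated genes tested, the median was 126 nt and the middle 50% ran from 89 to 182 nt. With only the deletion libraries pooled, the most-read PCL1 cluster was that at 404 nt, with 173 reads, against 137 at 120 nt. This did not hold in deletion replicate 3, which had 47 reads at 404 nt, against 59 at 120 nt and 53 at 477 nt. In all, 19 of the 27 member clusters had enough reads to be tested singly and 0 were called by edgeR, where 0.496% of all clusters were called (0.414% higher and 0.0827% lower). Of the 19, the CLN1 cluster at 96 nt, the PCL1 cluster at 404 nt and the KCC4 cluster at 955 nt did not overlap in scaled level. The share without overlap over all tested clusters was 13.1%. At an unadjusted p under 0.05 there were 6 member clusters, where 7.78% of all tested clusters (564) passed. They were the CLN1 clusters at 65, 96 and 126 nt, the PCL1 clusters at 120 and 404 nt and the KCC4 cluster at 955 nt. Their reads are part of those behind the gene calls of CLN1, PCL1 and KCC4, so they are not separate support. Without wild-type replicate 2, 3 were called: the PCL1 clusters at 120 and 404 nt and the CLN1 cluster at 96 nt (log2 fold change -1.15). In that fit 53 clusters were called over all genes, against 36 with all 6 libraries. Leaving out any other single library gave 0 member clusters called.

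No gene of the wider Start pathway list was called. Among 24 other Start and G1 regulators, 11 were tested and 0 were called in either direction by edgeR, with a median log2 fold change of -0.01. The lowest was MSA1, whose product binds SBF and MBF and times G1 transcription, with 33.5, 26.7 and 12.6 CPM in the deletion libraries, against 54.3, 47.7 and 54.3 CPM in the wild-type libraries. The groups did not overlap, but the log2 fold change of -1.14 (SE 0.36) did not pass (adjusted p = 0.12, edgeR), and MSA1 was the 1 gene of the 11 with an unadjusted p under 0.05. STB1, another partner of these factors, had -0.48 (SE 0.25, adjusted p = 0.52, edgeR). Of the 11, 2 lay lower without overlap and 0 higher, where 6.95% of all tested genes lay lower without overlap.

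Among 30 genes known as targets of SBF or MBF, 19 were tested and 0 were called, with a median of -0.03. The log2 fold changes ran from -0.62 in OCH1, a mannosyltransferase of the Golgi, to 0.32 in SWE1, the kinase that restrains Cdc28. OCH1 did not pass (SE 0.18, adjusted p = 0.081, edgeR) with 1 of the 19 genes, OCH1 itself, at an unadjusted p under 0.05. It was called without wild-type replicate 1 (-0.85, adjusted p = 0.0026). Its level was 313 ± 33.3 CPM in the deletion strain, against 492 ± 185 CPM in wild type, and without wild-type replicate 2 its log2 fold change was -0.30. GAS1, a wall glucan enzyme, had 0.26 (SE 0.13, adjusted p = 0.53, edgeR), or 0.10 without wild-type replicate 2.

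The Pho85 kinase and its other cyclins gave 6 tested genes of 8, with 0 called by edgeR, 1 at an unadjusted p under 0.05 (PCL6) and a median of -0.08. PCL6, a cyclin of glycogen control, had -0.45 (SE 0.22, adjusted p = 0.49, edgeR), and CLG1, a cyclin-like protein that binds Pho85, had -0.20 (SE 0.26), or -0.055 without wild-type replicate 2. The septins and bud-neck kinases gave 8 tested genes of 12, with 0 called by edgeR, 0 at an unadjusted p under 0.05 and a median of 0.13. BNI5, a septin-binding protein, had 0.26 (SE 0.21) and the septin CDC11 had 0.25 (SE 0.20; 0.16 without wild-type replicate 2), while GIN4, a close relative of KCC4, had -0.35 (SE 0.32, adjusted p = 0.78, edgeR).

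Genes that peak in other phases were described in the same way. The histone genes of S phase gave 2 tested members, HTA2 with -0.21 (SE 0.14) and HTB2 with 0.06 (SE 0.13), or 0.13 without wild-type replicate 2. The G2/M list had 9 tested members, 0 called by edgeR, 0 at an unadjusted p under 0.05 and a median of 0.06, and its lowest p values were those of the myosin MYO1 (0.63, SE 0.37) and the spindle protein ASE1 (-0.43, SE 0.32). Of 16 tested genes of the M/G1 list, which includes SIC1 and PCL9, 13 lay above 0 with a median of 0.15, where 50% of all tested genes lay above 0. In the other lists 5 of 11 Start and G1 regulators, 8 of 19 SBF and MBF targets, 3 of 6 Pho85 genes, 6 of 8 septin and bud-neck genes and 5 of 9 G2/M genes lay above 0. At an unadjusted p under 0.05 the M/G1 list had 3 genes, CTS1, PIR3 and DSE2, with no share over all tested genes given to compare. CTS1, the chitinase that parts daughter from mother cells, rose with 1572, 1345 and 927 CPM in the deletion libraries, against 817, 885 and 807 CPM in the wild-type libraries (log2 fold change 0.61, SE 0.15, adjusted p = 0.020, edgeR). The CTS1 call was lost when deletion replicate 1 or 2, or replicate 1 or 3 of wild type, was left out, with adjusted p between 0.058 and 0.33 (edgeR). It was also lost with DESeq2 (adjusted p = 0.092), with the replicate block (0.055), with only the most-read cluster (0.098) and without clusters at or past the next same-strand feature (0.30). PIR3, a cell wall protein, had 0.64 (SE 0.23, adjusted p = 0.22, edgeR), and was called with only the clusters past the stop codon (1.27, adjusted p = 0.014, edgeR). The part of cell cycle phase in the CLN1 and KCC4 values was not tested.

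**Figure D5:**
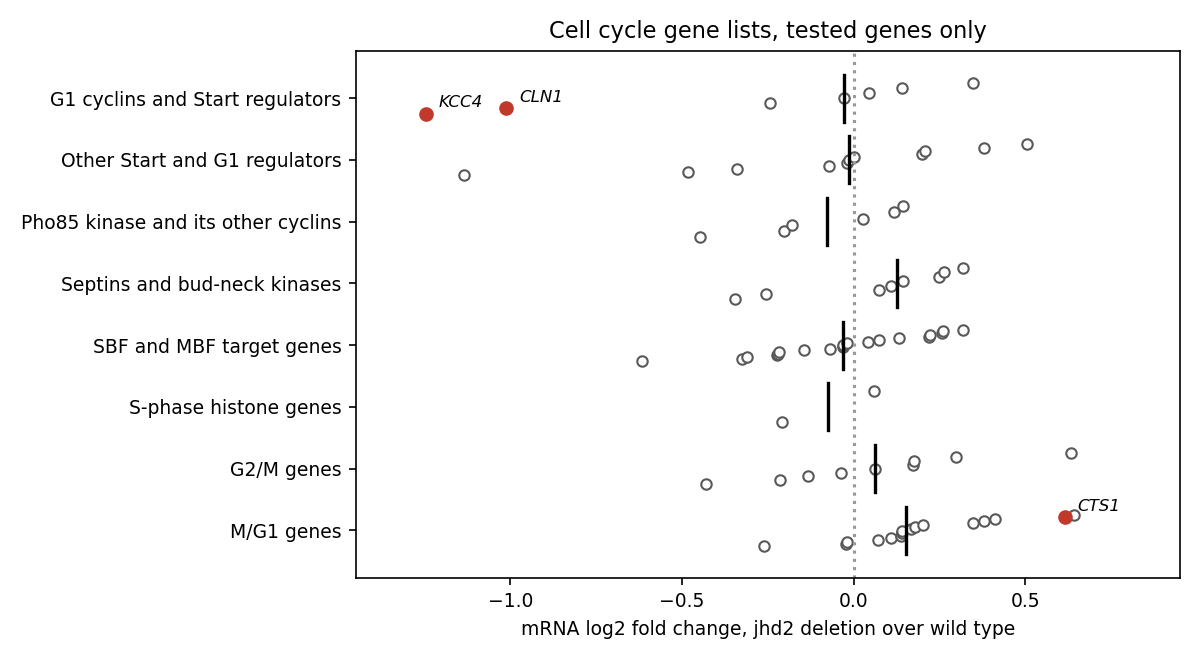
mRNA log2 fold change (jhd2 deletion over wild type) of the tested genes of each list; filled points passed the adjusted threshold, black bars are list medians and the dotted line the median of all tested genes. CLN1 and KCC4 are the filled points below 0 and CTS1 the one above 0.

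Tested genes next to the members were not called. ROT1, downstream of CLN1 on the same strand, had a log2 fold change of -0.09 (SE 0.16), and CIK1, upstream of it, had -0.16 (SE 0.37). DLD2 past PCL9 had -0.24 (SE 0.20), CDC24 opposite CLN3 had 0.12 (SE 0.25) and EMP46 past SIC1 had 0.85 (SE 0.38, adjusted p = 0.41, edgeR).

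Genes whose pattern over the 6 libraries was closest to a called member were found by the root-mean-square difference of centred log2 CPM. For CLN1 these were TMA64 (0.15), ATF1 (0.19) and SKO1 (0.23), with log2 fold changes of -0.80, -0.67 and -0.91, and none was called by edgeR. ATF1, an alcohol acetyltransferase, was called without wild-type replicate 2 (-0.84, adjusted p = 0.036). SKO1, a repressor of osmotic stress genes, was called with only the clusters past the stop codon (-1.06, adjusted p = 0.041, edgeR). For KCC4 they were CEP3 (0.34), NIT1 (0.36) and ROD1 (0.36), with log2 fold changes of -0.71, -0.95 and -0.74 and no call. All of these genes were picked for closeness to a member called lower in the same libraries. Log2 fold changes below 0 therefore follow from the choice and are not separate support.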

How the data were processed

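The authors deposited whole-number counts of reads at each pA cluster for 6 libraries. Per the series description, the authors aligned the reads to sacCer3 with Bowtie2 (version not given in the sources used here), required mapping quality of at least 10 and at least 2 unaligned 5′ T bases, clustered ends within 24 bp, assigned clusters to genes extended by up to 1000 bp, and removed clusters under 3 reads or 5% of the reads of the gene. A cluster can thus lie in a neighbouring transcript. The numbering base of the positions is unstated, so distances can be off by 1 nt. Column totals are not library depths, since genes with 1 cluster are absent.

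For mRNA level, counts were summed per gene and tested in edgeR 4.0.16 by quasi-likelihood (R 4.3.3; TMM scaling; filterByExpr defaults; strain as sole factor) over 3366 genes. Relative use of clusters with 20 or more reads was tested with diffSpliceDGE over 2380 genes, and single clusters with the same count over 7252. P-values were adjusted by Benjamini-Hochberg, with a threshold of 0.05, over all features tested. Gene and cluster CPM have separate scales. Permutation tests over libraries were exact. Alternatives used DESeq2 1.42.0 and limma 3.58.1. Sequences, features and gene names came from RefSeq (R64), and uniqueness was checked with BLAST 2.17.0. The tests were also run on counts simulated with a fixed dispersion and with changes set in genes of higher counts. That setting does not cover the low-depth members, and its results are not given here. No library pair within a group differed by less than sampling noise (chi-square per degree of freedom 1.41 or more).

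The members and the gene lists were chosen with earlier results of these data known. Text names every member, called genes of the other lists with the 2 smallest p of each, the 3 closest patterns to each called member, and neighbours. GIN4, SWE1 and DSE2 were named outside this rule, after their values were seen.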

Additional observations from a re-analysis of the deposited data

How the results depend on the processing

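The call of CLN1 (adjusted p under the threshold) was lost with only the most-read cluster of each gene, at a log2 fold change of -0.95 (adjusted p = 0.21, edgeR). KCC4 gave no adjusted p in DESeq2, and its call was lost with limma-voom (adjusted p = 0.082), with only clusters past the stop codon (0.064) and with only the most-read cluster (0.20). All KCC4 clusters lie past the stop codon, so its own reads were unchanged in that setting. Members called for level numbered 2, against 1 with DESeq2, limma-voom, clusters past the stop codon or clusters before the next same-strand feature (the last added after seeing the data), and 0 with the most-read cluster. Leaving out single libraries gave 0 to 2. Over all genes, 44 level calls (36 higher, 8 lower) became 26 (21 and 5) with DESeq2 and 27 (3 lower) with the most-read cluster, and 30 to 51 (26 to 39 higher, 4 to 15 lower) without single libraries.

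PCL1 usage was called with all clusters and before SNR40. It was lost, leaving 0 members called, with clusters of 50 or more reads, past the stop codon, the 2 most-read clusters, limma-voom or the Simes test. With 50 or more reads or past the stop codon, the PCL1 clusters tested and their shift of 60.5 nt were unchanged (adjusted p = 0.061 each, edgeR diffSpliceDGE). The 5 genes called for usage became 1 with 50 or more reads, past the stop codon or by Simes, 2 with the 2 most-read clusters or limma-voom, 3 with all clusters or before the next feature, and 0 to 4 without single libraries (members 0 to 1). Single clusters called then numbered 29 to 53 and member clusters 0 to 3. The log2 fold change of PCL1 turned to -0.83 with its most-read cluster and -0.086 before SNR40, and the mean end shift of CLN1 from -19.4 nt turned to 0.767 nt with 50 or more reads or the 2 most-read clusters. The causes were not tested.

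Without single libraries the log2 fold change ran from -0.13 to 0.080 in CLN2, -0.53 to 0.16 in CLN3, -0.022 to 0.13 in PCL1, -0.0022 to 0.26 in PCL9 and -0.0028 to 0.14 in HTB2. The mean end shift ran from -56.9 to 13.2 nt in CLN1, -0.51 to 0.54 nt in CLN2, -6.69 to 0.88 nt in PCL9, -3.22 to 1.34 nt in SIC1, -108 to 22.1 nt in KCC4 and 30.7 to 93.7 nt in PCL1.

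Replicate numbers did not pair the libraries: deviations of same-numbered libraries correlated at -0.09, -0.03 and -0.01, and 0 of 3 had its own number as best partner. With the replicate block, 33 genes were called for level (5 lower; CLN1 but not KCC4, 1 member) and 2 for usage (0 members). Low depth limits SWI4, CLN3 and KCC4 most.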
